A study of Mus musculus with 8 samples.

Results

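The SLC25 genes encode the mitochondrial carriers, and 47 of the 45777 genes in the deposited table were protein-coding genes whose symbol begins with Slc25a and a number. The rule uses the symbol and no measured value. Their RNA was compared between primary hepatic stellate cells transfected with an siRNA against PAK4 (siPAK4) and cells transfected with a control siRNA (siControl), with 4 libraries in each group. Stellate cells store vitamin A in the liver and become collagen-producing myofibroblasts when they activate, and PAK4 is a p21-activated kinase. All 8 samples came from male, wild-type C57BL/6 mice, carried the same batch label and were poly(A)-selected for stranded libraries. The sources used here do not give the siRNA sequences, the purity of the cells or the time after transfection. The labels do not say whether replicates were separate animals or cultures, so a p-value here reflects only the spread of these libraries, and that spread may be technical.

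Mitochondrial carriers are small proteins built from repeats of a similar module, each spanning the membrane as a pair of helices, and most of them sit in the inner mitochondrial membrane. A carrier binds its solute on one face of the membrane, switches its conformation and releases it on the other, often in exchange for a second solute. The family moves the ATP, phosphate, citrate, amino acids, cofactors and iron on which respiration, the urea cycle, lipid synthesis and iron-sulfur cluster assembly depend.

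A repeat typically holds the signature of the family, a proline, an acidic residue and a basic residue at fixed spacing. The coding sequences below, from the GENCODE M21 annotation of GRCm38, show that signature in 5 members with changed RNA. The capitals mark the 6 codons of the first match in each coding sequence, in coding orientation from 5′ to 3′. In the mitoferrins Slc25a28 and Slc25a37 the same 6 bases precede the match.
Slc25a4: gtcgccCCGATCGAGAGGGTCAAActgctg
Slc25a23: acagctCCTCTGGACCGACTCAAGgtattc
Slc25a27: acctttCCCCTCGATCTCACAAAAacccga
Slc25a28: atgtacCCGATCGACTGCGTCAAGacccgg
Slc25a37: atgtacCCGGTGGACTCCGTGAAGacacgg
The pattern searched was a proline codon, any codon, an acidic codon, any 2 codons and a basic codon. It occurred 3 times in 27 members, 2 times in 12, once in 5 and not at all in 3, namely Slc25a46, Slc25a51 and Slc25a53. The encoded proteins ranged from 265 to 677 residues, with a median of 318.

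The libraries held 57297561 to 61535063 counts in siControl and 55728583 to 59205049 in siPAK4. Pak4 itself averaged 17.2 ± 1.14 CPM (read counts scaled to a fixed library size after TMM; SD, n = 4) in siControl and 6.32 ± 1.13 in siPAK4. Its log2 fold change was -1.44 (SE 0.118, adjusted p = 9.4e-06), and the groups did not overlap. In a principal component analysis the first component (44.1% of the variance) parted the groups, and the second (13.4%) set siPAK4 replicate 3 apart. Markers of several cell types were present. The summed CPM of 12 stellate cell genes was 1053 to 1480 in siControl and 470 to 653 in siPAK4. Most of it came from Col1a2, Col1a1, Acta2 and Tagln. They averaged 639, 328, 125 and 74.1 CPM in siControl and 268, 122, 40.4 and 23.4 in siPAK4. These genes, Des and Pdgfrb were the 6 lower of 11 tested, and Hgf was the 1 higher (log2 fold change 0.38). Reln, Hand2, Lhx2 and Rgs5 had 0.17, 0.12, 0.48 and 0.33 and did not pass. Lrat was under the filter, at a mean of 0.0269 and 0.216 CPM. The summed CPM of 14 macrophage genes, mostly Lyz2, was 10047 to 11527 and 5636 to 8954 (9 of 13 tested lower, none higher). Adgre1, Cd68, Cd14 and Timd4 did not pass, with log2 fold changes of 0.14, -0.04, -0.10 and -2.02. The 12 endothelial genes summed to 6636 to 6877 and 4172 to 5980 CPM (6 lower, 4 higher). Mesothelial or portal fibroblast genes, mostly Fbln2, summed to 870 to 1098 and 346 to 457 CPM (5 of 9 lower). Vascular smooth muscle genes summed to 85.4 to 103 and 56.1 to 74.9 CPM (5 of 6 lower). Hepatocyte genes, mostly Ass1, summed to 138 to 209 and 173 to 203 CPM, with 3 of 6 tested higher. Cholangiocyte genes, mostly Spp1, summed to 1137 to 1610 and 1033 to 1502 (1 of 5 lower), lymphocyte genes to 0.975 to 1.30 and 0.849 to 1.29, and neutrophil genes, mostly S100a8, to 6.83 to 11.3 and 10.6 to 14.0. Ly6g, Elane and Retnlg had no read. The part of these cell types in the SLC25 results was not tested, and in bulk RNA fewer cells of a type and less RNA per cell cannot be told apart.

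Levels of the members spanned a wide range. On the deposited TPM scale, which corrects for gene length, Slc25a5 was the most abundant at 549 ± 18.1 TPM in siControl and 555 ± 40.1 in siPAK4 (SD, n = 4). It encodes an ADP/ATP translocase, as does Slc25a4, which averaged 394 ± 15.8 and 343 ± 15.9 TPM. The phosphate carrier Slc25a3 averaged 394 TPM in siControl and 387 in siPAK4. Next among the members came Slc25a39, which carries glutathione (103 and 108 TPM), the oxoglutarate carrier Slc25a11 (92.8 and 84.3) and the citrate carrier Slc25a1 (82.4 and 78.6). Together the 5 most abundant members made up 66.3% to 69.4% of the members' TPM in each library. The members' summed TPM was 2167 to 2263 in the siControl libraries and 2102 to 2280 in the siPAK4 libraries, so the groups overlapped. Relatives without an Slc25a symbol, counted further below, are left out of these sums. Among them Mtch1 averaged 230 TPM in siControl and 183 in siPAK4.

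**Figure D1:**
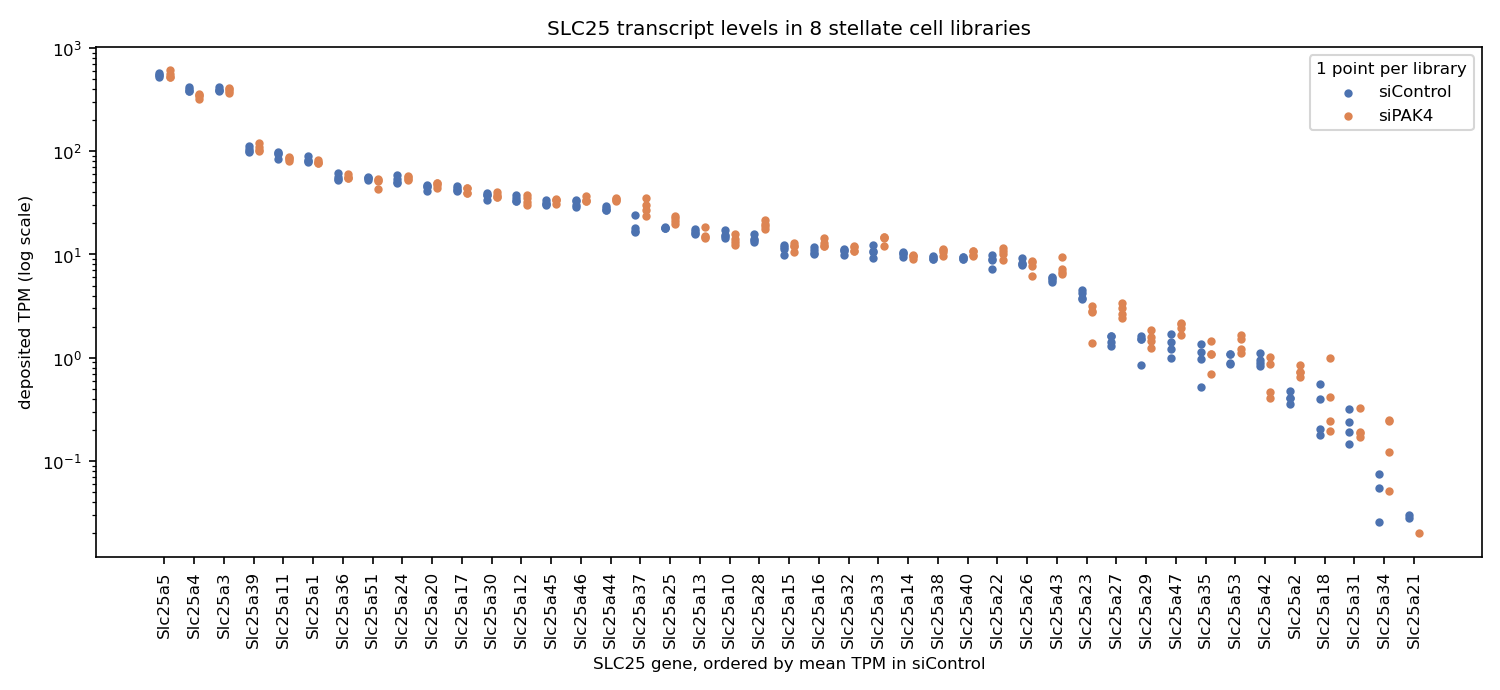
Deposited TPM (log axis) of the reported SLC25 genes with at least 1 read, ordered by mean TPM in siControl, with 1 point per library; libraries at 0 are not drawn. Slc25a5, Slc25a4 and Slc25a3 lie above 300 TPM in all 8 libraries, and levels of most members lie close together in both groups.

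At the low end, Slc25a41, Slc25a48 and Slc25a54 had no read in any library, which allows at most 0.0499 to 0.0542 CPM per library (3 counts; counting error only). Slc25a21, an oxodicarboxylate carrier, had 7 reads in all. For Slc25a34 the siControl replicates 1 to 4 held 6, 5, 2 and 0 reads and the siPAK4 replicates 9, 18, 21 and 5, so the groups overlapped. These 5 genes did not pass the filter on low counts, which left 42 tested members. Unread members could lie next to transcribed ones: Slc25a54 lies 6566 bases from Slc25a24, which had 39054 reads, and Slc25a41 lies 2056 bases from Slc25a23, which had 2351. The pseudogene Slc25a5-ps, with 2 reads, was not counted among the members.

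Of the 42 tested members, 6 were higher in siPAK4, 4 were lower and 32 did not pass the test at an adjusted p of 0.05. Over all 17975 genes tested, 12.4% were higher, 14.5% were lower and 26.9% were called in either direction. The members' 10 calls were 23.8% of those tested, near that background. For 13 members (9 higher, 4 lower), or 31.0%, the groups did not overlap, against 28.8% of all genes. The median log2 fold change was 0.03 over the tested members and 0.0052 over all tested genes. The median size of the log2 fold change, whatever its sign, was 0.16 in the members and 0.19 in all genes. Members lay between -0.73 and 0.84, so none changed by 2-fold. Leaving out siControl replicate 2 gave 4 higher and 2 lower, and leaving out siPAK4 replicate 3, the library that stood apart, gave 6 and 6. The lower count was also 2 without siControl replicate 3, siControl replicate 4 or siPAK4 replicate 2. Scaling by library totals moved the split to 14 higher and 1 lower, adding Slc25a2, Slc25a16, Slc25a22, Slc25a38, Slc25a40, Slc25a46, Slc25a47 and Slc25a53, and over all genes it moved the share of calls that were higher from 46.1% to 67.6%. The FPKM fit gave 12 and 1, with 67.9% of all calls higher.

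**Figure D2:**
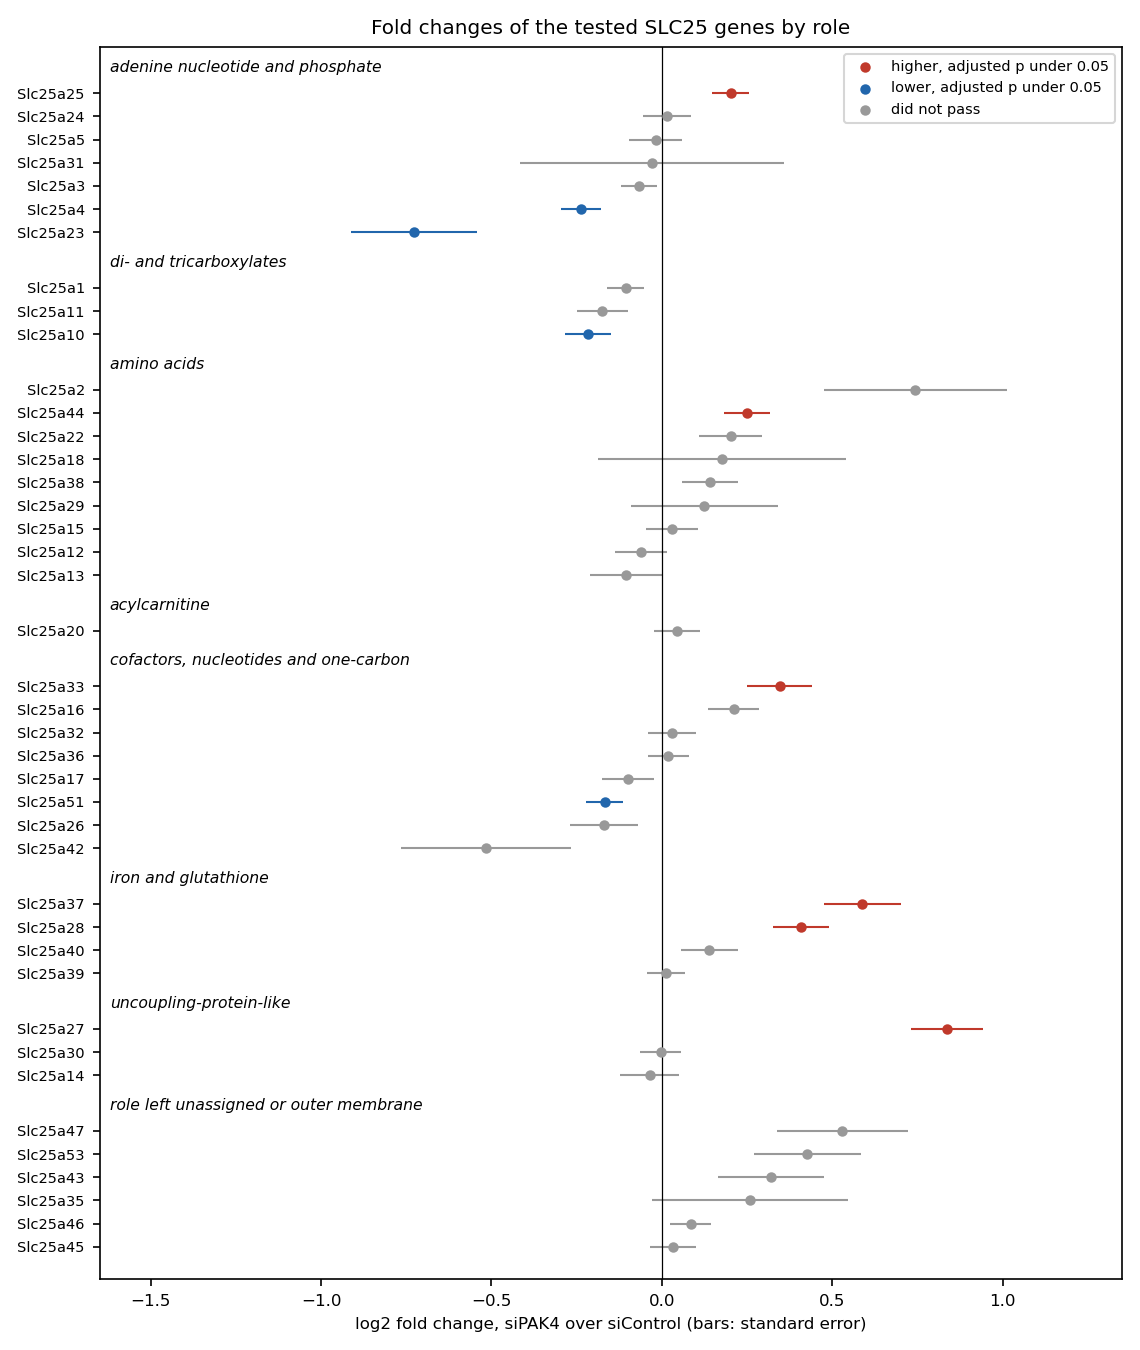
Log2 fold change of siPAK4 over siControl for the tested members reported (edgeR; bars are 1 standard error), grouped by the solute carried and coloured by the test. The 6 higher and 4 lower members are spread over 6 of the 8 groups, and both mitoferrins are among the higher.

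The mitochondrial iron importers were higher in siPAK4. Slc25a37 (chr14:69241848-69285544, mm10) encodes mitoferrin-1, which brings iron into mitochondria for heme and iron-sulfur clusters. The siControl replicates 1 to 4 read 50.0, 34.8, 37.8 and 36.8 CPM, and the siPAK4 replicates, in the same order as in all such sentences, 60.4, 68.2, 52.9 and 58.0. All siPAK4 libraries lay above all siControl libraries, although siControl replicate 1 came close to siPAK4 replicate 3. The gene rose 1.503-fold (log2 fold change 0.59, SE 0.113, adjusted p = 0.0027). Slc25a28 (chr19:43663801-43675006), the paralog called mitoferrin-2, was read at 11.4, 9.92, 9.57 and 11.04 CPM in siControl and 13.6, 14.8, 13.6 and 13.6 in siPAK4. The groups did not overlap, and it rose by 0.41 on the log2 scale (SE 0.0819, adjusted p = 0.0035). Their coding sequences were 72.1% identical with a longest shared run of 15 bases. The ratio of Slc25a37 to Slc25a28 TPM averaged 1.32 in siControl and 1.47 in siPAK4, and these ratios overlapped (exact permutation test, 2-sided, p = 0.2). The glutathione carriers Slc25a39 and Slc25a40 had log2 fold changes of 0.01 and 0.14 and did not pass.

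Of the 3 genes named for their likeness to uncoupling proteins, 1 changed. Slc25a27 (chr17:43637739-43667214), also called UCP4 and best known from brain, was read at 5.36, 4.86, 4.34 and 5.02 CPM in siControl and 9.45, 9.41, 7.70 and 8.40 in siPAK4. Every siPAK4 library was above every siControl library. It rose 1.78-fold (log2 fold change 0.84, SE 0.105, adjusted p = 0.00016), the smallest adjusted p among the tested members. On the TPM scale its level remained low, 1.496 ± 0.173 in siControl and 2.88 ± 0.432 in siPAK4 (SD, n = 4). Slc25a30 and Slc25a14 had log2 fold changes of -0.0040 and -0.04 and did not pass.

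Carriers of adenine nucleotides and phosphate moved in different directions, with 1 of 7 tested higher, 2 lower and 4 not past the test. Slc25a4 (chr8:46207168-46211062), the ADP/ATP translocase of heart and muscle, was read at 233, 258, 246 and 245 CPM in siControl and 199, 206, 226 and 202 in siPAK4. The groups did not overlap, though siPAK4 replicate 3 lay near siControl replicate 1. It fell by 0.24 on the log2 scale (SE 0.0580, adjusted p = 0.011), but with library totals as the scaling the adjusted p was 0.064 and in the FPKM fit 0.11. Slc25a5, the paralog on the X chromosome, had a log2 fold change of -0.02 (SE 0.0781) and a CPM of 292 to 386 in siPAK4, around the 326 to 343 of siControl. The sperm-enriched translocase Slc25a31 stayed under 0.35 CPM in every library.

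The ratio of Slc25a4 to Slc25a5 TPM was 0.695, 0.753, 0.697 and 0.726 in siControl and 0.662, 0.639, 0.569 and 0.611 in siPAK4. No siPAK4 ratio reached the lowest siControl ratio. The exact 2-sided permutation test gave p = 0.0286, the smallest p that 4 libraries against 4 can give, and p = 0.0786 after adjustment over the 11 paralog pairs compared. The coding sequences of these genes were 77.5% identical, with a longest shared run of 20 bases. The sources used here do not say how reads that match both were counted.

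The ATP-Mg/phosphate carriers exchange adenine nucleotides for phosphate under the control of calcium. Slc25a23 (chr17:57043711-57059909) was read at 6.50, 7.13, 5.89 and 6.01 CPM in siControl and 4.63, 3.98, 2.31 and 4.50 in siPAK4. Every siPAK4 library was below every siControl library, with siPAK4 replicate 3 the lowest. It fell by 0.73 on the log2 scale (SE 0.185, adjusted p = 0.013), the largest fall among the tested members, and by 0.55 without siPAK4 replicate 3. Slc25a25 (chr2:32414487-32451470) was read at 28.1, 28.0, 28.2 and 29.0 CPM in siControl and 33.9, 32.5, 31.6 and 32.4 in siPAK4. Its groups were narrow and apart, and it rose by 0.20 (SE 0.0544, adjusted p = 0.017), a call lost without siPAK4 replicate 1 (adjusted p = 0.0516). Slc25a24, the most abundant of them at 53.1 and 55.0 TPM, had a log2 fold change of 0.02. The ratio of Slc25a23 to Slc25a24 averaged 0.0764 in siControl and 0.0442 in siPAK4 without overlap (exact permutation p = 0.0286, adjusted 0.0786).

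**Figure D3:**
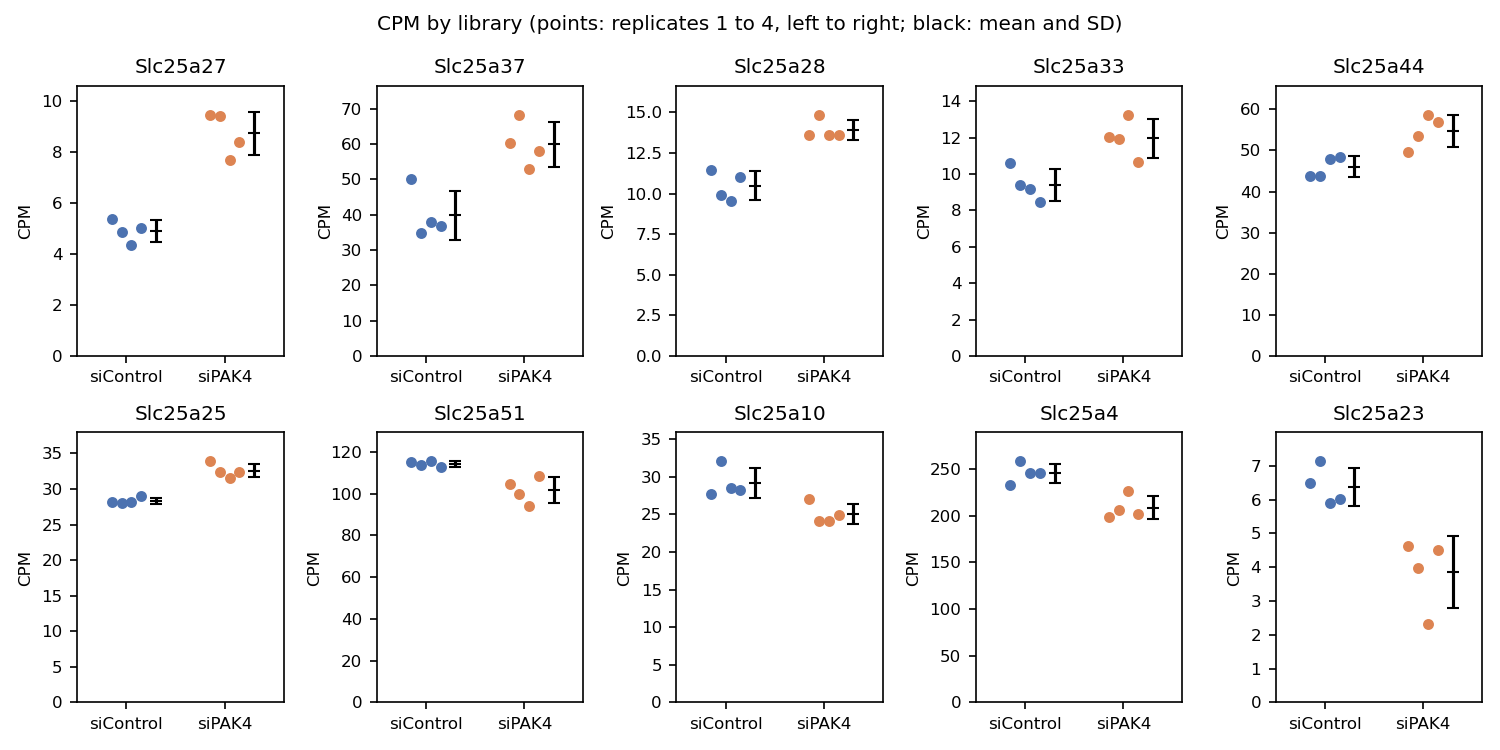
CPM of the 10 members past the test, with 1 point per library (replicates 1 to 4 from left to right in each group), and the mean and SD in black; every axis starts at 0. The groups do not overlap in any panel, and the gap between the nearest libraries is narrowest for Slc25a33.

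Carriers of di- and tricarboxylates feed citrate and malate between the matrix and the cytosol. The dicarboxylate carrier Slc25a10 (chr11:120491837-120501161) was read at 27.8, 32.1, 28.6 and 28.2 CPM in siControl and 27.0, 24.1, 24.2 and 25.0 in siPAK4. The highest siPAK4 library was just under the lowest siControl library. It fell by 0.22 on the log2 scale (SE 0.0686, adjusted p = 0.035). The call was lost without siControl replicate 2 (adjusted p = 0.108), 3 (0.0625) or 4 (0.0516) and without siPAK4 replicate 2 (0.103) or 4 (0.0750). It was also lost with library totals (0.193) and in the TPM and FPKM fits, where adjusted p lay between 0.215 and 0.238. Slc25a11 and Slc25a1 had log2 fold changes of -0.17 and -0.11 and did not pass, although Slc25a11 did when siControl replicate 1 or siPAK4 replicate 3 was left out.

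Among the 9 tested amino acid carriers, 1 was higher and 8 did not pass. Slc25a44 (chr3:88410494-88425141), a carrier of branched-chain amino acids, was read at 43.7, 43.8, 48.0 and 48.4 CPM in siControl and 49.7, 53.5, 58.6 and 57.0 in siPAK4. The groups came close without overlapping. It rose by 0.25 on the log2 scale (SE 0.0673, adjusted p = 0.017), a call lost without siControl replicate 2 (adjusted p = 0.0577) or siPAK4 replicate 4 (0.0504). The aspartate-glutamate carriers of the malate-aspartate shuttle, Slc25a12 and Slc25a13, had log2 fold changes of -0.06 and -0.10, and Slc25a13 passed as lower only without siPAK4 replicate 3. The mitochondrial ornithine carrier Slc25a15 had 0.03, and the glutamate carrier Slc25a22 had 0.20 (adjusted p = 0.13). Slc25a38, a glycine carrier needed for heme synthesis, had 0.14, and the basic amino acid carrier Slc25a29 had 0.12. Slc25a2, a second ornithine carrier with 170 reads in all, was read at 0.235 to 0.305 CPM in siControl and 0.374 to 0.501 in siPAK4. Its groups did not overlap, but it missed the threshold (log2 fold change 0.74, SE 0.269, adjusted p = 0.061). It passed with library totals and in the TPM and FPKM fits. The value of Slc25a18, another glutamate carrier with 287 reads in all, is uncertain, since Atp6v1e1 overlaps it on the opposite strand and had 110870.

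Slc25a20, which exchanges acylcarnitines for carnitine and so feeds fatty acids to oxidation, had a log2 fold change of 0.04 (SE 0.0676) at 44.7 and 47.4 TPM.

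Of 9 tested carriers of cofactors, nucleotides and one-carbon units, 1 was higher, 1 was lower and 7 did not pass. Slc25a33 (chr4:149744036-149774267), a pyrimidine nucleotide carrier, was read at 10.6, 9.40, 9.20 and 8.45 CPM in siControl and 12.0, 11.9, 13.2 and 10.6 in siPAK4. The lowest siPAK4 library lay just above the highest siControl library. It rose by 0.35 on the log2 scale (SE 0.0957, adjusted p = 0.019), a call lost without siControl replicate 2 (0.0504), 3 (0.0531) or 4 (0.0570), all adjusted p. Slc25a36, the other pyrimidine nucleotide carrier, had a log2 fold change of 0.02. Slc25a51 (chr4:45395923-45408917), which imports NAD into mitochondria, was read at 115, 113, 115 and 113 CPM in siControl and 105, 99.7, 94.1 and 108 in siPAK4. Its siControl libraries were nearly equal and all above siPAK4. It fell by 0.17 (SE 0.0543, adjusted p = 0.039). Without a single library the adjusted p of Slc25a51 was 0.0792, 0.0758, 0.0856 and 0.0667 for siControl replicates 1 to 4 and 0.0550 and 0.1098 for siPAK4 replicates 1 and 2. It was also not called without a filter (0.0552), with library totals (0.294) or in the TPM and FPKM fits (0.272 to 0.333).

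The remaining carriers of this group did not pass. Slc25a16 and Slc25a42, both linked to coenzyme A, had log2 fold changes of 0.21 (adjusted p = 0.057) and -0.52 (adjusted p = 0.15). Slc25a16 passed by DESeq2, with library totals, with the stricter filter, in the FPKM fit and without siControl replicate 3. Slc25a42 was read at 1.30, 1.41, 1.65 and 1.29 CPM in siControl and 1.40, 1.19, 0.649 and 0.715 in siPAK4, with replicates 3 and 4 lowest and replicate 1 within the siControl range. The Slc25a16 to Slc25a42 TPM ratio was 10.7 to 12.4 in siControl and 14.4 to 29.7 in siPAK4, without overlap (exact permutation p = 0.0286, adjusted 0.0786). The folate carrier Slc25a32 had a log2 fold change of 0.03, the S-adenosylmethionine carrier Slc25a26 had -0.17 and the peroxisomal carrier Slc25a17 had -0.10.

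None of the 6 tested genes whose solute was left unassigned, or that act on the outer membrane, passed in the reported edgeR fit. In that fit 2 had an unadjusted p under 0.05. These were Slc25a47 (1.01 CPM in siControl and 1.46 in siPAK4, log2 fold change 0.53, adjusted p = 0.060) and Slc25a53 (1.62 and 2.18 CPM, 0.43, adjusted p = 0.067), and neither overlapped between groups. Both were called with library totals and in the FPKM fit, and Slc25a47 also with the stricter filter, in the fit of log2(TPM + 1) and without siControl replicate 1. Slc25a46, an outer membrane protein linked to mitochondrial fission and fusion, had a log2 fold change of 0.08 at 31.4 and 34.2 TPM. Slc25a45, Slc25a43 and Slc25a35 had 0.03, 0.32 and 0.26.

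Among the 11 paralog pairs, 4 had TPM ratios that did not overlap between groups and none passed after adjustment. Even full separation gives a permutation p of only 0.0286 before adjustment. A single pair therefore could not pass over 11 pairs, and the adjusted test cannot decide for any 1 of them. The fourth was Slc25a2 to Slc25a15, at 0.0364 in siControl and 0.0618 in siPAK4, with only 170 reads of Slc25a2 in all. The coding sequences of the pairs were 60.4% to 77.5% identical, with a longest shared run of 11 to 21 bases.

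Slc25a27, Slc25a37, Slc25a28 and Slc25a23 were called in the same direction in all 17 alternative fits. Slc25a25 was called in 16, Slc25a4 and Slc25a44 in 15, Slc25a33 in 14, Slc25a10 in 7 and Slc25a51 in 5. None of the 10 changed sign in any of them.

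**Figure D4:**
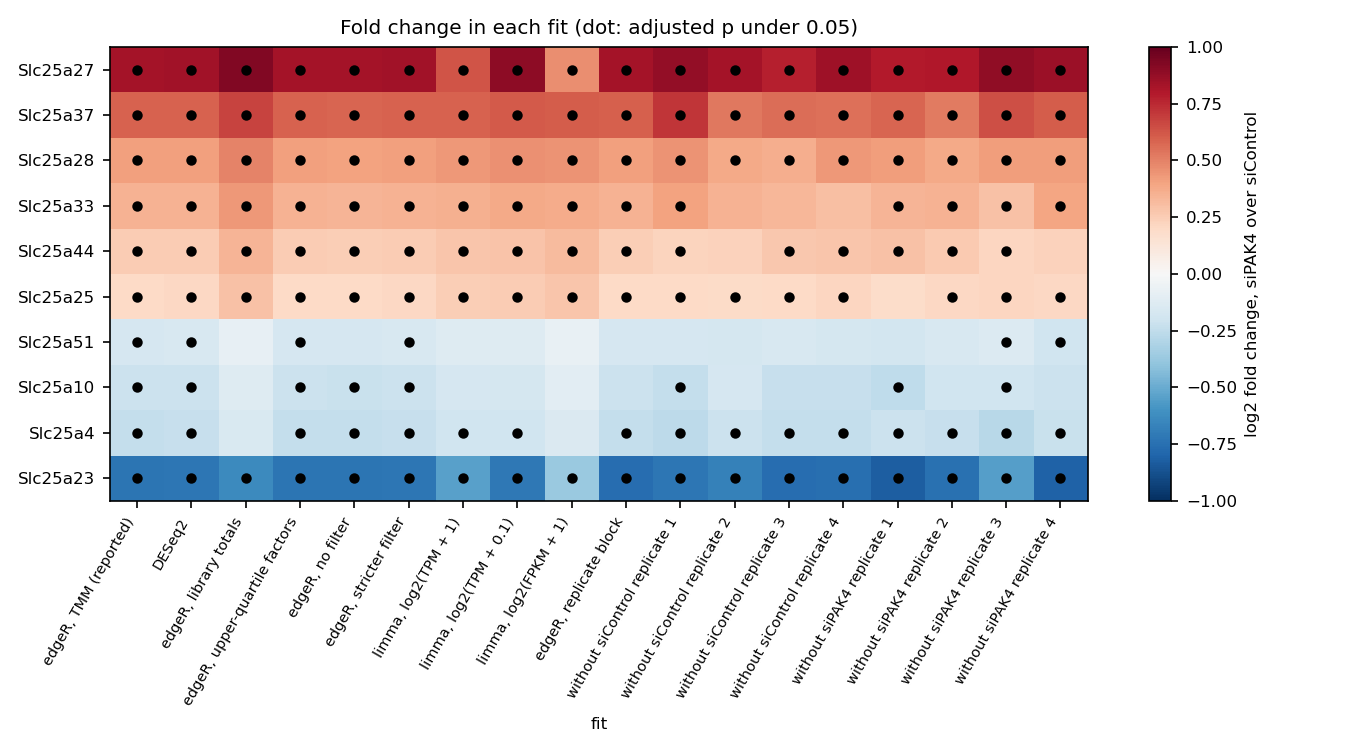
Log2 fold change of the 10 called members (colour) in the reported fit and 17 alternatives, with a dot where the adjusted p was under 0.05. Slc25a27, Slc25a37, Slc25a28 and Slc25a23 carry a dot in every column, and Slc25a51 carries one in the reported fit and 5 alternatives.

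Several members overlap another gene on the genome. Slc25a25 overlaps Naif1, which had 1764 reads to its 14093 and a log2 fold change of -0.29 (adjusted p = 0.13). Slc25a23 overlaps Crb3 (6 reads to 2351), and Slc25a37 overlaps Gm31748 (45 reads to 23115). Among members that did not pass, Slc25a26 overlaps Lrig1, which had 31114 reads to its 3262 and a log2 fold change of 0.59 (adjusted p = 4.3e-05), and Slc25a11 overlaps Rnf167 (8458 reads to 35265, log2 fold change 0.49). Slc25a35 (374 reads) overlaps Rangrf (2974). Each neighbour named here lies on the strand opposite to its member. The libraries were stranded, but the strand setting of the counting is unknown. Whether reads of such neighbours were kept apart is therefore not known.

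Promoter windows of 36 members were searched on both strands for 6 motifs, those of regulators of mitochondrial genes and the TATA box, chosen after the fold changes had been seen. RefSeq windows (GRCm38.p6) of 27025 genes served as background. The cyclic AMP response element TGACGTCA occurred in 2 of the 36 members and in 2.03% of all genes, and the E-box CACGTG in 7 members and in 8.09%. The NRF1 core TGCGCA was found in 4 members (8.79% of all genes), the ETS core CCGGAAGT in 1 (4.31%), the ERR motif AAGGTCA in 1 (5.38%) and TATAAA in 2 (15.7%). Windows of 6 of the 10 called members were among these, and those of Slc25a27, Slc25a37, Slc25a44 and Slc25a51 were not searched. Of the 6, Slc25a25 held the first and Slc25a33 the E-box. Those matches are shown, in capitals, as the only matches in the called members searched; each sequence reads 5′ to 3′ on the minus strand, chr2:32424169-32424256 and chr4:149774268-149774315.
Slc25a25: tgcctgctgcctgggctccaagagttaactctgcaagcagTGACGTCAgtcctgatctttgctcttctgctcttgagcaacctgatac
Slc25a33: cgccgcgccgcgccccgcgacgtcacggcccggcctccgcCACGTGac
The Slc25a25 match lies 150 bases before 1 of 3 annotated starts, and the Slc25a33 match lies 8 bases before its start. A match describes these letters only.

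Genes that work with the carriers were counted in 5 lists by function, to be read against the same 12.4% higher and 14.5% lower over all genes. Of the 3 tested relatives outside the Slc25a symbols, 2 were lower. Ucp2, an uncoupling protein, averaged 53.4 CPM in siControl and 28.0 in siPAK4 and fell by 0.93 on the log2 scale (SE 0.104, adjusted p = 7.2e-05). Mtch1, a protein of the outer membrane, averaged 204 and 157 CPM and fell by 0.37 (SE 0.0649, adjusted p = 0.0014). Mtch2 had a log2 fold change of 0.08 and did not pass.

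Of 16 tested genes for carrier import, which deliver the hydrophobic carriers to the inner membrane, 4 were higher, none was lower and 12 did not pass, with a median log2 fold change of 0.13. Timm9 averaged 10.8 CPM in siControl and 13.4 in siPAK4 and rose by 0.32 on the log2 scale (SE 0.0819, adjusted p = 0.014). It forms, with Timm10, the chaperone of the intermembrane space. Timm10b, Agk and Timm10 rose by 0.27, 0.22 and 0.33 on the log2 scale, with adjusted p of 0.018, 0.031 and 0.032. The groups overlapped for Timm10 but not for Timm9, Timm10b or Agk. Timm9 was called in all 17 alternatives, Timm10b in 16, Timm10 in 11 and Agk in 10. Timm10b was lost without siControl replicate 3 (adjusted p = 0.0562), and Timm10 without any 1 of the siControl replicates or siPAK4 replicate 2 or 3 (0.0521 to 0.0830). Agk was lost without siControl replicate 1, 2 or 3 or siPAK4 replicate 3 or 4 (0.0519 to 0.0962) and in the TPM fits. The count was 2 without siControl replicate 1 or 2, and 1 without siControl replicate 3. It was 8 with library totals and 7 in the FPKM fit.

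Of 17 other routes across the mitochondrial membranes, 2 were higher and 2 lower, with a median of 0.0050. The calcium uniporter Mcu averaged 24.03 CPM in siControl and 30.8 in siPAK4 and rose by 0.36 (SE 0.0676, adjusted p = 0.0024). The sideroflexins Sfxn3 and Sfxn5 fell by 0.42 and 0.31 (adjusted p = 0.0090 and 0.025). The higher count was 1 without siControl replicate 1 or 3 or siPAK4 replicate 4. Sfxn5 lost its lower call without siControl replicate 1 or 4 or siPAK4 replicate 1, 2 or 4 (adjusted p = 0.0528 to 0.0714). The call was also lost with library totals and in the TPM and FPKM fits. The lower count was 1 in those fits and without those libraries, but 0 in the fit of log2(TPM + 1).

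Among 39 tested enzymes on either side of the carriers, 5 were higher and 8 lower, with a median of -0.04. The higher ones included the glutathione synthesis genes Gclc (68.0 to 114 CPM, log2 fold change 0.74, adjusted p = 3.1e-05), Gclm (0.39, adjusted p = 0.0029) and Gss (0.41, adjusted p = 0.0015). Arg2, the mitochondrial arginase, averaged 1.65 and 6.14 CPM and rose by 1.89 on the log2 scale (SE 0.259, adjusted p = 0.00032). The 8 lower genes, named after their values were seen, were Me1, Mdh2, Glud1, Idh2, Bcat2, Oat, Ogdh and Aco1, which mostly handle dicarboxylates and amino acids, with log2 fold changes of -0.38 to -0.17. Of the called enzymes, only Oat had groups that overlapped. Me1, Mdh2, Idh2 and Bcat2 were called lower in all 17 alternatives and Glud1 and Oat in 16. Ogdh was called in 12, and was lost without siPAK4 replicate 2 (adjusted p = 0.0509). Aco1 was called in 7, and was lost without siControl replicate 2, 3 or 4 or siPAK4 replicate 1, 2 or 4 (adjusted p = 0.0524 to 0.0752). Both were also lost with library totals and in the TPM and FPKM fits. With library totals the counts turned to 11 higher and 6 lower, and in the FPKM fit to 12 and 4.

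Of 14 regulators of mitochondrial biogenesis, 1 was higher, with a median of 0.12. Ppargc1a, the coactivator PGC-1 alpha, averaged 0.44 CPM in siControl and 0.97 in siPAK4 and rose by 1.14 (SE 0.320, adjusted p = 0.021), and its call was lost without siControl replicate 2 (0.0505) or 4 (0.0518) and in the TPM and FPKM fits (0.0736 to 0.106). With the stricter filter it was not tested. The count was 2 without siControl replicate 1 or 3, 3 without siPAK4 replicate 3, 8 with library totals and 4 by DESeq2, which also called 1 lower.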

How the data were processed

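RNA-seq of 8 libraries was taken from 1 table deposited by the authors. Read counts per gene, per the file headers, were used as the authors deposited them, without normalization. The deposited TPM (scaled to gene length and to a fixed total) served for levels between genes and paralog ratios, and the deposited FPKM (scaled to depth and length) only in an alternative fit. Per the submitters' processing notes, the pipeline named StringTie 2.1.3b, HISAT2 2.1.0 and Bowtie2 2.3.4.1 and the build mm10. How counts were made, and their strand setting, is not given in the sources used here. Value columns were assigned to samples through the library names that the labels give.

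Genes were filtered with filterByExpr (minimum count 10; 17975 of 45777 kept), scaled by TMM and compared by the quasi-likelihood test of edgeR 4.0.16 (robust), calling a gene at 0.05 after Benjamini-Hochberg adjustment across every tested gene. Adjusted p-values are from that test unless another is named. Standard errors were derived from its F statistic. Paralog ratios were compared by exact permutation tests (scipy 1.17.1). Alternatives were DESeq2 1.42.0, other scalings and filters, limma 3.58.1 on log2 TPM or FPKM with a pseudocount, a replicate block and leaving out each library. No replicate pair agreed within sampling noise (chi-square per degree of freedom 13.7 to 74.8). The procedure was also run on simulated counts, drawn with dispersions estimated from these libraries. The planted changes were larger than those of most called members, so that run cannot show how well such smaller changes are found.

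Members are named, except 1 whose own values are not reported here, those past the test with their value in each library. From each other list up to 4 genes past the test with the smallest adjusted p are named. The members and lists were chosen with earlier results of these data known. All 47 members matched RefSeq (GRCm38.p6), which gave gene coordinates, counted from 1.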

Additional observations from a re-analysis of the deposited data

Results flagged for a closer look

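In 4 of 84 groups of 4 libraries, 1 library lay far from the other 3 by Dixon's test at its 95% critical value. Chance alone gives about 1 such group in 20. Slc25a28 was at 14.8 CPM in siPAK4 replicate 2, and the other siPAK4 libraries were all at 13.6. Slc25a31 was at 0.341 CPM in siPAK4 replicate 4, with 0.173 to 0.200 in the others. Slc25a36 was at 105 CPM in siControl replicate 3, with 92.5 to 94.1 in the others. Slc25a45 was at 40.1 CPM in siPAK4 replicate 3, with 34.1 to 34.8 in the others. Among these genes only Slc25a28 passed the test between groups, and its lowest siPAK4 library was above every siControl library.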

How the results depend on the processing

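The count of higher members, 6 as reported, was 14 with library totals and 12 in the FPKM fit, and the count of lower members, 4 as reported, was 1 in both. It was 2 in each TPM fit (pseudocount 1 or 0.1). Leaving out 1 library gave 4 to 7 higher and 2 to 6 lower. Library totals moved the median log2 fold change of all genes by 0.089 and the FPKM fit by 0.085. With a replicate block 6 members were higher and 2 lower, without Slc25a10 (adjusted p = 0.063) and Slc25a51 (0.061). The labels do not say whether a replicate number pairs libraries. Deviations of same-numbered libraries correlated at 0.035, -0.047, 0.104 and -0.037, and 1 of 4 siControl libraries correlated best with its own number. Such correlations cannot show whether same-numbered libraries were made together. Only members that did not pass changed sign. With library totals the log2 fold change was 0.0686 for Slc25a5, 0.0213 for Slc25a3, 0.0527 for Slc25a14, 0.0849 for Slc25a30, 0.0553 for Slc25a31 and 0.0255 for Slc25a12. In the FPKM fit it was 0.0673 for Slc25a5, 0.0293 for Slc25a3, 0.0765 for Slc25a30, 0.0024 for Slc25a31 and 0.0199 for Slc25a12. The TPM fits gave Slc25a5 0.0123 with either pseudocount and Slc25a30 0.0255 and 0.0261. The Slc25a18 to Slc25a22 difference was -0.0015 as a ratio of counts. Leaving out 1 library gave ranges across 0: -0.11 to 0.033 for Slc25a5, -0.029 to 0.059 for Slc25a15, -0.0067 to 0.073 for Slc25a20, -0.032 to 0.019 for Slc25a30, -0.019 to 0.034 for Slc25a39, -0.022 to 0.064 for Slc25a32, -0.12 to 0.39 for Slc25a18, -0.30 to 0.21 for Slc25a31, -0.028 to 0.055 for Slc25a45, -0.016 to 0.061 for Slc25a36, -0.039 to 0.23 for Slc25a29 and -0.043 to 0.065 for Slc25a24. For the ratios it gave -0.014 to 0.090 (Slc25a12 to Slc25a13) and -0.32 to 0.32 (Slc25a18 to Slc25a22). The causes were not tested beyond what each setting changes by construction. Ratios of 3 libraries against 4 cannot reach 0.05. Fits of the other lists under these settings were added after seeing the data. Slc25a2, Slc25a18 and Slc25a31, with few reads, are limited by depth.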
